A study of Mus musculus with 90 samples.

Results

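The 44 genes described here encode the proteins that build and fill autophagosomes and the lysosomal proteins that empty them. They were chosen by symbol for 8 roles in the pathway, from the initiation complex to the lysosome, and all 44 were found among the 27654 gene IDs of the count tables. Earlier results of these data were known when they were chosen, so counts of these genes set against all genes are descriptive. The tables hold bulk RNA-seq of whole mouse liver, made to ask what the glucocorticoid receptor (GR), encoded by *Nr3c1*, contributes to the response to caloric restriction over the day. The 90 libraries form a time series on each of 2 diets, a diet comparison and a corticosterone experiment. Zeitgeber time (ZT) counts hours from lights on.

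All mice were adult males of strain C57BL/6J kept on chow. In mice on caloric restriction (cal. res.) the daily ration was gradually lowered and then held at the reduced amount, with food given at ZT12, when lights went off. Control mice (ctrl.) ate freely until the last week, in which food was offered only at night. In the time series the WT mice carried floxed GR alleles without Cre (GRfl/fl), and the GR LKO mice carried the same alleles with Alb-Cre. The albumin promoter drives this Cre in hepatocytes, so that GR of other liver cells was not targeted. Livers were taken at ZT0, ZT4, ZT8, ZT12, ZT16 and ZT20, from 3 mice of each genotype and time on cal. res. (36 libraries) and from 3 or 4 on ctrl. diet (22 WT and 20 GR LKO libraries). The diet comparison held WT mice without floxed alleles at ZT12, 3 on cal. res. and 3 on ctrl. diet. The titles of those 3 ctrl. libraries carry the letters AL, whereas the label for treatment has them on night-restricted feeding. The corticosterone experiment held WT mice at ZT12, 3 injected daily with corticosterone (CORT) and 3 controls (ctrl.), all on night-restricted feeding. The study's methods describe vehicle injections for the controls, which their labels do not mention.

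Autophagy encloses cytoplasm and organelles in a membrane that closes into an autophagosome and then fuses with a lysosome, where hydrolases break the contents down. The ULK1 kinase complex starts the process when nutrients are scarce, a lipid kinase complex marks the site, and small proteins of the LC3 and GABARAP families are attached to the growing membrane and bind cargo receptors. In liver, autophagy supplies amino acids and lipids during fasting, and transcripts of several of its genes are known to vary over the day.

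Levels are given as CPM, which is the count scaled to a common library total with TMM factors within each experiment. For a gene they are comparable between libraries of the same experiment. The time series of each diet counts as its own experiment, and levels are not comparable between genes. The ctrl. time series held 10057544 to 17089004 counts per library (median 13427104, 42 libraries) and the cal. res. time series 14235473 to 20788575 (median 17386700, 36 libraries). Depth in the diet comparison was 36442195 to 39492146 counts (median 37407547), and in the corticosterone experiment 13739631 to 16077943 (median 14431388). The lowest estimated count of any of the 44 genes was 3.10, for *Atg4d* in 1 library, and its level lay between 0.237 and 4.9995 CPM over the 90 libraries. Only *Atg4d*, *Atg10* (0.644 to 5.65 CPM), *Tfeb* (2.70 to 12.2 CPM) and *Wipi1* (3.62 to 27.8 CPM) had libraries under 5 CPM, and at these depths all 44 passed the filter on low counts in every comparison of groups.

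The targeted gene was low in every GR LKO group. *Nr3c1* averaged 77.9, 87.7, 101, 101, 89.2 and 90.9 CPM in cal. res. WT livers at ZT0, ZT4, ZT8, ZT12, ZT16 and ZT20, and 21.9, 24.6, 25.3, 31.0, 24.8 and 25.5 CPM in GR LKO livers at the same times. On ctrl. diet the means were 75.0, 91.1, 94.6, 84.4, 92.1 and 79.0 CPM in WT and 18.8, 22.6, 22.6, 21.3, 26.1 and 21.1 CPM in GR LKO. The smallest difference was at ZT12 on cal. res. (log2 fold change -1.70, SE 0.0746, adjusted p = 8.33e-05) and the largest at ZT8 on ctrl. diet (log2 fold change -2.06, SE 0.0862, adjusted p = 9.57e-06), and the gene was called at all 12 combinations of diet and time. In the diet comparison *Nr3c1* held 88.7, 90.3 and 95.7 CPM on ctrl. and 84.3, 88.4 and 86.6 CPM on cal. res. (log2 fold change -0.083, SE 0.0634, adjusted p = 0.317), and in the corticosterone experiment 74.1, 77.4 and 69.4 CPM in ctrl. and 61.7, 83.9 and 65.9 CPM in CORT livers (log2 fold change -0.063, SE 0.128, adjusted p = 0.808). It was not called in either, nor from ZT12 to ZT16 on cal. res. (log2 fold change -0.17, SE 0.101, adjusted p = 0.219) or ctrl. diet (log2 fold change 0.13, SE 0.134, adjusted p = 0.561).

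A gene was called when its edgeR p-value, adjusted over all genes tested, was under 0.05. With diet in WT at ZT12, 22 of the 44 genes were called against 47.1% of all genes tested, 12 higher on cal. res. (23.5% of all) and 10 lower (23.6% of all). Between ZT12 and ZT16 in WT livers on cal. res., 23 were called (40.0% of all), 3 higher at ZT16 (21.0%) and 20 lower (19.0%). The same step on ctrl. diet called 9 (13.4% of all), 0 higher (6.85%) and all 9 lower (6.60%), and 4 to 10 without 1 library (7.55% to 11.9% of all). For that 0, edgeR's unadjusted p was under 0.05 for 15 of the 44 in either direction (30.0% of all), a share near that of all genes, and DESeq2 called 11 (15.8% of all). CORT called 8 (8.11% of all), 7 higher (4.47%) and 1 lower (3.64%), and 2 to 7 when 1 library was left out (1.76% to 8.59% of all). The share called with diet was near that of all genes, so that count is not a result about these genes.

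The genotype comparisons called few of the 44. On cal. res. at ZT12, 7 were called (15.3% of all), 2 higher in GR LKO (7.42%) and 5 lower (7.84%), a share close to that of all genes, and 3 to 5 without 1 library (7.50% to 11.004% of all). At ZT8 on cal. res. 2 were called (2.55% of all) and at ZT16 3 (4.54% of all), each 0 or 1 without any 1 library (0.458% to 2.58% and 1.93% to 2.86% of all). At the other cal. res. times edgeR called 0, at ZT0 (0.502% of all), ZT4 (0.690%) and ZT20 (1.47%). At an unadjusted p under 0.05 there were 5 at ZT0 (13.2% of all), 9 at ZT4 (14.6%) and 6 at ZT20 (19.4%), and DESeq2 called 1 (3.03%), 0 (3.51%) and 2 (5.43%). On ctrl. diet 1 was called at ZT12 (2.08% of all). The other ctrl. times gave 0 by edgeR, at ZT0 (0.536% of all), ZT4 (0.195%), ZT8 (1.43%), ZT16 (1.98%) and ZT20 (0.420%). At an unadjusted p under 0.05 there were 7 (15.3% of all), 4 (9.75%), 3 (11.2%), 10 (16.6%) and 10 (11.3%) at these times, and DESeq2 called 2 (3.10%), 1 (1.51%), 1 (2.83%), 1 (632 of 12633 genes) and 1 (2.11%). The interaction of genotype and diet at ZT12, which asks whether the effect of GR loss differed between the diets, called 0 by edgeR (1.01% of all). For it 10 were at an unadjusted p under 0.05 (14.2% of all) and DESeq2 called 3 (4.20%).

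The median log2 fold change of the 44 was 0.02 with diet, -0.24 between ZT12 and ZT16 on cal. res., -0.12 over that step on ctrl. diet, 0.12 with CORT and -0.10 with GR loss on cal. res. at ZT12, where the medians of all genes tested lay between -0.01 and 0.01. Of the 44 values 23 were positive with diet (50% of all genes), 13 and 10 from ZT12 to ZT16 on cal. res. (50.7%) and ctrl. diet (48.8%), 30 with CORT (49.0%), 11 with GR loss on cal. res. at ZT12 (49.6%) and 13 to 25 with GR loss otherwise (48.3% to 51.1%). For each called gene in the comparisons of 2 groups, the libraries of one group all lay above those of the other. With 3 or 4 livers a group, such a separation is likely once a gene is called. Here and below it describes the values and is not further evidence, and its share among all called genes was not counted. Each liver was taken once, from a different mouse, so no change was followed within a mouse. A rise or fall in 3 of 3 livers means that the 3 livers of the later time or treated group all lay beyond every liver compared. The cal. res. ZT12 WT libraries serve in both the genotype comparison and the step to ZT16, as do the ctrl. ZT12 WT libraries, so those results are not independent.

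**Figure D1:**
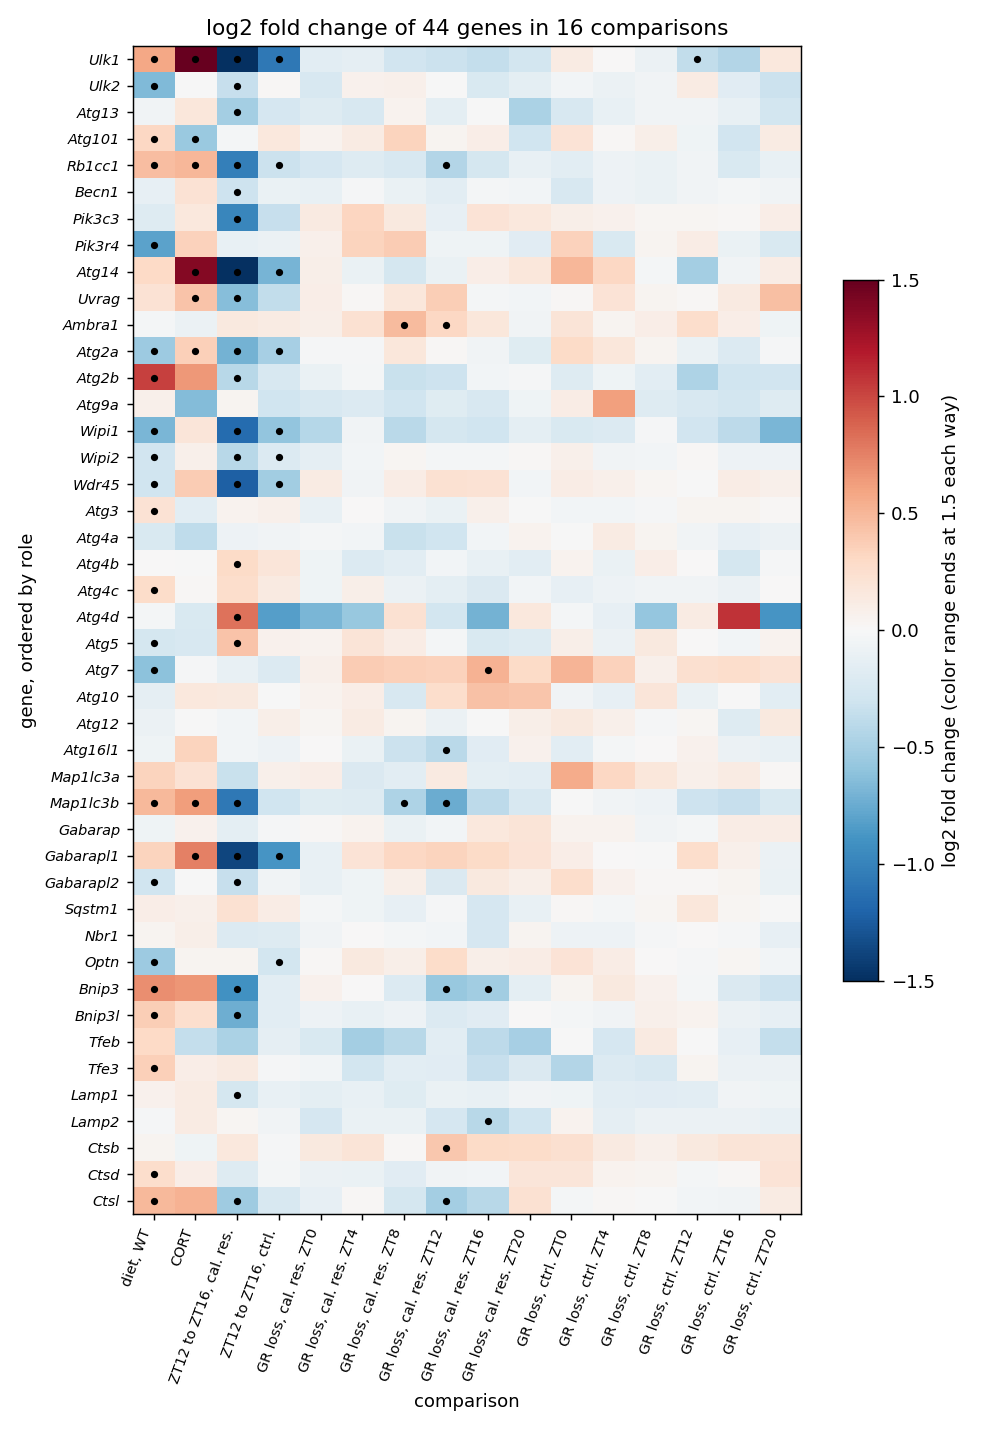
Heat map of the log2 fold change of the 44 genes (vertical axis, ordered by role) in 16 comparisons (horizontal axis), with red for higher and blue for lower in cal. res., CORT, ZT16 or GR LKO and black dots on called genes. The color range ends at 1.5 in each direction, and the step from ZT12 to ZT16 on cal. res. has 20 of its 23 dots on blue cells.

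Whole liver holds several cell types, and lists of their marker genes moved with some of these comparisons. Hepatocyte markers (7 genes, *Alb* the largest part of the sum, none at 0) summed to 85433, 86696 and 92135 CPM in the ctrl. livers of the diet comparison and 157353, 160428 and 164993 CPM in the cal. res. livers, with 4 of 7 called higher. In the cal. res. series they summed to 169380, 167612 and 174196 CPM in WT at ZT12, 127138, 133702 and 117977 CPM in GR LKO at ZT12 (5 of 7 called lower) and 141413, 149164 and 142250 CPM in WT at ZT16 (3 of 7 called lower). On ctrl. diet at ZT12 the sums were 84793, 100293, 82163 and 92591 CPM in WT and 70514, 67023, 75367 and 86802 CPM in GR LKO (3 of 7 called lower), 1 of 7 was called lower in GR LKO at ZT8 and at ZT16 on cal. res. (*Apoa1*), and 1 was called higher with CORT (*Hnf4a*). Kupffer and myeloid markers (8 genes, *Clec4f* the largest part, none at 0) went against the hepatocyte markers on cal. res. in the time series, at 42.7, 70.3 and 49.8 CPM in WT at ZT12, 120, 94.1 and 122 CPM in GR LKO at ZT12 (4 of 8 called higher) and 97.1, 138 and 122 CPM in WT at ZT16 (8 of 8 called higher). With CORT they went from 66.4, 82.9 and 91.3 to 102, 141 and 116 CPM (2 of 8 called higher), and with diet from 131, 108 and 136 to 83.0, 135 and 119 CPM (1 of 8 called, lower). Their part in the results for the 44 genes was not tested.

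Endothelial markers (6 genes, none at 0, *Clec4g* or *Kdr* the largest part) summed to 116, 149 and 153 CPM on ctrl. and 194, 194 and 222 CPM on cal. res. in the diet comparison (4 of 6 called higher), and to 87.4, 73.7, 76.8 and 84.2 CPM at ZT12 and 105, 110, 105 and 106 CPM at ZT16 in ctrl. WT livers (4 of 6 called higher). On cal. res. 1 of 6 was called higher in GR LKO at ZT12 and 3 were called between ZT12 and ZT16 (2 higher), while CORT called 1, lower. Stellate markers (6 genes, *Dcn* the largest part, none at 0) summed to 218, 223 and 182 and 301, 268 and 307 CPM in the diet comparison (2 of 6 called higher) and to 132, 105, 88.9 and 131 and 208, 144, 214 and 185 CPM at ZT12 and ZT16 on ctrl. diet (3 of 6 called higher), and CORT called 1, lower. The 5 cholangiocyte markers (*Epcam* at 0 in these groups, *Spp1* the largest part) summed to 49.0, 46.7 and 47.5 and 58.3, 38.2 and 38.6 CPM in the diet comparison (2 of 4 tested called higher) and to 31.3, 22.6, 32.5 and 53.2 and 32.2, 33.4, 39.8 and 30.2 CPM at ZT12 and ZT16 on ctrl. diet (2 of 4 called higher), with *Sox9* called lower with CORT and with GR loss on cal. res. at ZT12. The 6 erythrocyte markers (the pair *Hbb-bs* and *Hbb-bt* the largest part, none at 0 at ZT12) summed to 585, 457 and 354 CPM in WT and 806, 577 and 442 CPM in GR LKO on cal. res. at ZT12. Of these *Alas2* was called lower with diet, and higher with GR loss on cal. res. at ZT8, ZT12 and ZT16 and on ctrl. diet at ZT0 and ZT16. The 6 lymphocyte markers summed to 3.13, 4.71 and 2.21 CPM on ctrl. and 0.709, 1.01 and 0.849 CPM on cal. res. in the diet comparison, where *Cd79a* and *Cd79b* were called lower. Of the 5 neutrophil markers at most 2 passed the filter in a comparison, edgeR called none, and *Ly6g* was at 0 in every group at ZT12 and ZT16. The part of these markers was not tested, and in whole tissue fewer cells of a type cannot be told apart from less RNA per cell.

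*Ulk1*, the gene of the kinase that starts autophagy, moved more with CORT and between ZT12 and ZT16 than any other of the 44. In the corticosterone experiment it stood at 47.1, 42.4 and 46.6 CPM in ctrl. livers and 137, 194 and 159 CPM in CORT livers (log2 fold change 1.85, SE 0.140, adjusted p = 0.00128). All 3 CORT livers lay above every ctrl. liver, and the call was kept whichever library was left out. On cal. res. WT livers held 89.8, 99.3 and 112 CPM at ZT12 and 29.4, 34.3 and 22.6 CPM at ZT16 (log2 fold change -1.80, SE 0.160, adjusted p = 0.000342). On ctrl. diet the values were 112, 121, 115 and 118 CPM at ZT12 and 54.4, 68.8, 50.3 and 46.5 CPM at ZT16 (log2 fold change -1.08, SE 0.113, adjusted p = 0.00154). The groups did not overlap on either diet, and both calls were kept without any 1 library.

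With diet, *Ulk1* rose from 85.3, 70.7 and 80.1 CPM to 109, 124 and 120 CPM (log2 fold change 0.58, SE 0.0908, adjusted p = 0.00236). The 3 cal. res. livers were all higher in that comparison, but in the time series, whose WT libraries at ZT12 hold both diets and in which diet and library series cannot be told apart, the difference had the other sign (log2 fold change -0.23, adjusted p = 0.0766). On ctrl. diet at ZT12 *Ulk1* was the 1 gene of the 44 called with GR loss, with 112, 121, 115 and 118 CPM in WT and 90.3, 86.5, 91.7 and 90.8 CPM in GR LKO (log2 fold change -0.37, SE 0.0578, adjusted p = 0.0123). All 4 GR LKO livers lay under all 4 WT livers, and the call was lost when all ctrl. libraries were fitted together (log2 -0.38, adjusted p = 0.172). It was also lost with the replicate number as a block. On cal. res. at ZT12 it was 89.8, 99.3 and 112 CPM in WT and 85.3, 72.1 and 83.1 CPM in GR LKO (log2 fold change -0.32, SE 0.1101, adjusted p = 0.0933). These groups did not overlap either, though the gene was not called, and the interaction gave no difference between diets beyond its error (log2 0.066, SE 0.114, adjusted p = 0.855).

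Of the other members of the initiation complex, *Rb1cc1* encodes FIP200, the scaffold on which it assembles. Its level was 36.0, 31.2 and 32.4 CPM in ctrl. and 46.1, 48.4 and 45.8 CPM in CORT livers (log2 fold change 0.49, SE 0.0898, adjusted p = 0.0210), and on cal. res. at ZT12 72.8, 81.6 and 72.7 CPM in WT and 59.8, 49.4 and 57.9 CPM in GR LKO (log2 fold change -0.44, SE 0.1001, adjusted p = 0.0273). Each pair of groups was separate, but the CORT call was lost without ctrl. replicate 2 or 3 or CORT replicate 1 or 3 (log2 0.45 to 0.51, adjusted p = 0.0612 to 0.0976), and the genotype call without WT replicate 1, 2 or 3 or GR LKO replicate 2 or 3 (log2 -0.47 to -0.35, adjusted p = 0.0540 to 0.0809). *Rb1cc1* also rose with diet (log2 fold change 0.47, adjusted p = 0.00578, 3 of 3 livers higher) and fell from ZT12 to ZT16 on cal. res. (mean 75.7 to 36.9 CPM, log2 -1.02, adjusted p = 0.000269) and on ctrl. diet (mean 46.1 to 36.7 CPM, log2 -0.32, adjusted p = 0.0308). The ctrl. call was lost without ZT12 replicate 2 or 4 or ZT16 replicate 1, 3 or 4 (log2 -0.32 to -0.29, adjusted p = 0.0711 to 0.0867) or with no filter on low counts (log2 -0.32, adjusted p = 0.0502).

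*Atg101*, a subunit that stabilizes ATG13, was the 1 gene called lower with CORT, at 18.3, 19.3 and 22.0 CPM in ctrl. and 12.3, 14.6 and 13.3 CPM in CORT livers (log2 fold change -0.56, SE 0.122, adjusted p = 0.0356). The groups were separate, and the call was lost without ctrl. replicate 1, 2 or 3 or CORT replicate 1 or 3 (log2 -0.62 to -0.48, adjusted p = 0.0710 to 0.112). With diet *Atg101* was called higher in 3 of 3 livers (log2 fold change 0.31, adjusted p = 0.0458), a call lost without ctrl. replicate 2 or 3 or cal. res. replicate 1, 2 or 3 (log2 0.23 to 0.36, adjusted p = 0.0590 to 0.140) or with no filter (log2 0.31, adjusted p = 0.0542). In the time series libraries it had the other sign (log2 -0.37, adjusted p = 0.0397). *Ulk2*, a close relative of *Ulk1*, fell with diet from 79.0, 88.7 and 93.9 CPM to 61.9, 53.0 and 49.9 CPM (log2 fold change -0.67, SE 0.104, adjusted p = 0.00235). Every cal. res. liver was below every ctrl. liver. From ZT12 to ZT16 on cal. res. *Ulk2* (log2 fold change -0.35, adjusted p = 0.0377) and *Atg13*, the regulatory subunit, (log2 fold change -0.51, adjusted p = 0.0111) fell in 3 of 3 livers. The *Ulk2* call was lost without ZT12 replicate 2 or 3 or ZT16 replicate 1, 2 or 3 (log2 -0.40 to -0.24, adjusted p = 0.0561 to 0.113) or when all cal. res. libraries were fitted together (log2 -0.35, adjusted p = 0.108). Together 4 of the 5 genes of this complex fell over that step on cal. res. (19.0% of all genes) and 2 on ctrl. diet (6.60% of all).

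**Figure D2:**
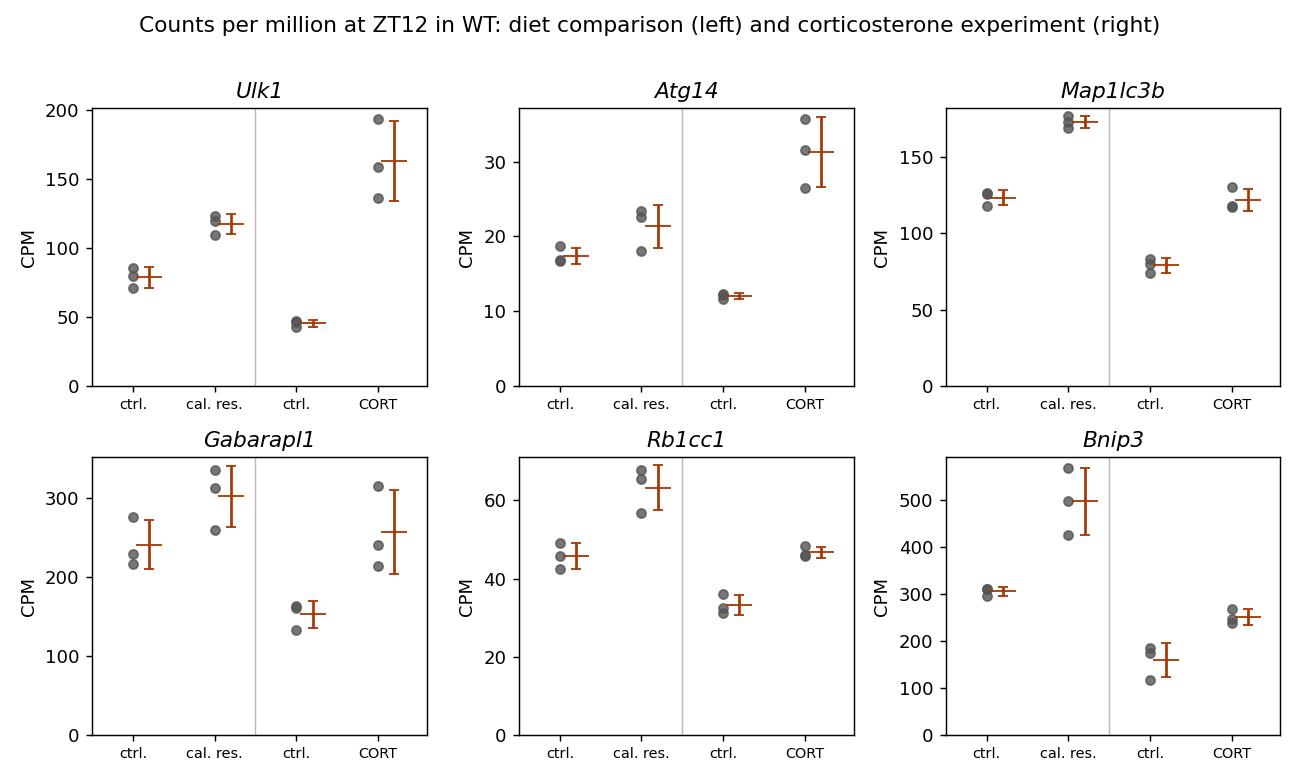
CPM (vertical axes) at ZT12 in WT livers of the diet comparison (left of the grey line) and the corticosterone experiment (right) for *Ulk1*, *Atg14*, *Map1lc3b*, *Gabarapl1*, *Rb1cc1* and *Bnip3*. Grey points are single livers (3 per group), and orange bars give the mean with SD. CORT livers lie above their controls for all 6 genes, of which *Bnip3* was not called.

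The class III PI3-kinase complex makes the lipid that marks sites of autophagosome formation. *Atg14*, the subunit that brings the kinase to those sites, rose with CORT from 12.3, 11.6 and 12.1 CPM to 26.5, 35.8 and 31.6 CPM (log2 fold change 1.38, SE 0.131, adjusted p = 0.00247). It fell on cal. res. from 31.6, 23.9 and 27.2 CPM at ZT12 to 9.38, 11.2 and 8.49 CPM at ZT16 (log2 fold change -1.496, SE 0.146, adjusted p = 0.000445), and on ctrl. diet from 18.1, 18.6, 22.1 and 28.9 to 12.4, 15.3, 13.3 and 12.6 CPM (log2 fold change -0.70, SE 0.156, adjusted p = 0.0204). The CORT and cal. res. calls were kept without any 1 library, and the ctrl. call was lost without ZT16 replicate 1, 3 or 4 (log2 -0.69 to -0.66, adjusted p = 0.0543 to 0.0617). *Uvrag*, found in the alternative complex that acts in endosome and autophagosome maturation, was called with CORT at 23.1, 20.5 and 19.4 CPM in ctrl. and 28.9, 27.4 and 28.5 CPM in CORT livers (log2 fold change 0.43, SE 0.101, adjusted p = 0.0459), and the call was lost without any 1 of the 6 libraries (log2 0.37 to 0.50, adjusted p = 0.0562 to 0.163) or with no filter (log2 0.43, adjusted p = 0.0677).

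The kinase itself, *Pik3c3* (mean 16.6 to 8.30 CPM, log2 -0.98, adjusted p = 0.000965), *Becn1*, its core regulatory subunit (log2 -0.31, adjusted p = 0.0166), and *Uvrag* (log2 -0.63, adjusted p = 0.0108) fell from ZT12 to ZT16 on cal. res. in 3 of 3 livers, so that 4 of the 6 genes fell there (19.0% of all genes) and 1, *Atg14*, on ctrl. diet (6.60% of all). The *Becn1* call was lost without ZT16 replicate 1 (log2 -0.31, adjusted p = 0.0505). *Pik3r4*, the regulatory kinase subunit VPS15, had the 1 diet call of the group, at 19.8, 20.3 and 18.4 CPM on ctrl. and 11.5, 11.9 and 9.97 CPM on cal. res. (log2 fold change -0.81, SE 0.0945, adjusted p = 0.000791). All 3 cal. res. livers were lower, and in the time series libraries the difference was near 0 with the other sign (log2 0.041). *Ambra1*, a BECN1-binding scaffold, was higher in GR LKO on cal. res. at ZT8, with 30.0, 29.6 and 27.5 CPM in WT and 43.999, 39.9 and 37.0 CPM in GR LKO (log2 fold change 0.47, SE 0.0902, adjusted p = 0.0445), and at ZT12 (log2 fold change 0.31, adjusted p = 0.0338). Both calls rested on all libraries, being lost at ZT8 without any 1 of the 6 libraries (log2 0.40 to 0.53, adjusted p = 0.0757 to 0.142) and at ZT12 without any 1 of the 6 libraries (log2 0.28 to 0.34, adjusted p = 0.0775 to 0.0908). At ZT12 it was also lost with DESeq2 (log2 0.32, adjusted p = 0.0516) and with no filter (log2 0.32, adjusted p = 0.0555).

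Lipid transfer proteins and the WIPI proteins feed and shape the growing membrane. With diet, *Atg2b*, a lipid transfer protein, rose from 12.2, 14.3 and 20.1 CPM to 26.0, 32.5 and 35.9 CPM (log2 fold change 1.02, SE 0.200, adjusted p = 0.00559), while its relative *Atg2a* fell (log2 fold change -0.54, adjusted p = 0.00140). *Wipi1*, which reads the phospholipid made by the kinase, fell from 15.6, 17.8 and 15.8 CPM to 11.1, 9.92 and 9.47 CPM (log2 fold change -0.69, SE 0.0979, adjusted p = 0.00160). *Wipi2* (log2 -0.29, adjusted p = 0.00793) and *Wdr45*, which encodes WIPI4 (log2 -0.30, adjusted p = 0.0126), were also lower in 3 of 3 livers. The *Wdr45* call was lost without cal. res. replicate 2 (log2 -0.28, adjusted p = 0.0518), and neither *Wipi2* (log2 -0.13) nor *Wdr45* (log2 -0.21) was called in the time series libraries, whereas *Atg2b* (log2 0.56), *Atg2a* (log2 -0.78) and *Wipi1* (log2 -0.92) were.

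Over the step from ZT12 to ZT16 on cal. res. *Wdr45* went from 37.6, 39.3 and 40.5 CPM to 17.8, 15.6 and 16.2 CPM (log2 fold change -1.23, SE 0.0849, adjusted p = 0.000166). *Wipi1* went from 12.5, 11.8 and 12.1 CPM to 6.85, 3.68 and 5.60 CPM (log2 fold change -1.16, SE 0.217, adjusted p = 0.00562). On ctrl. diet *Wdr45* fell from 41.7, 45.0, 47.5 and 45.0 to 36.3, 31.5, 27.0 and 29.9 CPM (log2 fold change -0.52, SE 0.0905, adjusted p = 0.00835) and *Wipi1* from 20.8, 17.9, 24.6 and 27.8 to 14.9, 15.3, 14.9 and 15.2 CPM (log2 fold change -0.59, SE 0.129, adjusted p = 0.0191). These groups did not overlap, and the ctrl. *Wipi1* call was lost without ZT12 replicate 3 or ZT16 replicate 1, 3 or 4 (log2 -0.59 to -0.55, adjusted p = 0.0510 to 0.0530). *Atg2a* fell on cal. res. (log2 fold change -0.71, adjusted p = 0.00788) and on ctrl. diet (log2 fold change -0.50, adjusted p = 0.00164), as did *Wipi2* (log2 -0.42, adjusted p = 0.00877, and log2 -0.20, adjusted p = 0.0481), and *Atg2b* fell on cal. res. (log2 fold change -0.42, adjusted p = 0.0422). So 5 of 6 genes of this role fell on cal. res. (19.0% of all genes) and 4 of 6 on ctrl. diet (6.60% of all), *Wipi2* included. The ctrl. call of *Wipi2* was lost without any 1 of the 8 libraries (log2 -0.23 to -0.17, adjusted p = 0.0514 to 0.125) or with no filter (log2 -0.19, adjusted p = 0.0983), and that of *Atg2b* on cal. res. without ZT12 replicate 1, 2 or 3 or ZT16 replicate 1 or 2 (log2 -0.47 to -0.31, adjusted p = 0.0541 to 0.127). *Atg2a* was called higher with CORT in 3 of 3 livers (log2 fold change 0.36, adjusted p = 0.0460), a call lost without any 1 of the 6 libraries (log2 0.32 to 0.40, adjusted p = 0.0706 to 0.169) or with no filter (log2 0.36, adjusted p = 0.0612). *Atg9a*, the membrane protein of the vesicles that seed autophagosomes, was called in none of the comparisons of groups and ran from 13.6 to 43.3 CPM.

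The conjugation genes attach ATG12 to ATG5 and LC3 to lipid. On cal. res. *Atg16l1*, which targets the conjugation machinery to the membrane, fell with GR loss at ZT12 from 49.4, 51.1 and 46.7 CPM in WT to 36.4, 36.9 and 37.4 CPM in GR LKO (log2 fold change -0.41, SE 0.0744, adjusted p = 0.0128). The GR LKO livers were all lower, and the call was kept without any 1 library but lost with the replicate number as a block. At ZT16 *Atg7*, the E1-like enzyme of both conjugations, was 25.8, 22.9 and 21.3 CPM in WT and 31.1, 34.8 and 34.5 CPM in GR LKO (log2 fold change 0.52, SE 0.0982, adjusted p = 0.0279). Here the GR LKO livers were all higher, and the call was lost without WT replicate 2 or 3 or GR LKO replicate 2 or 3 (log2 0.46 to 0.51, adjusted p = 0.0878 to 0.104).

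With diet *Atg7* fell in 3 of 3 livers (log2 -0.61, adjusted p = 0.00111), as did *Atg5* (log2 -0.27, adjusted p = 0.0212), while *Atg3*, the E2-like enzyme of LC3 (log2 0.22, adjusted p = 0.0193), and *Atg4c*, a protease that trims LC3 (log2 0.28, adjusted p = 0.0156), rose. The *Atg7* call was kept without any 1 library. That of *Atg5* was lost without ctrl. replicate 1 or 2 or cal. res. replicate 2 or 3 (log2 -0.26 to -0.22, adjusted p = 0.0664 to 0.0792), that of *Atg3* without ctrl. replicate 1 or 2 or cal. res. replicate 2 (log2 0.20 to 0.22, adjusted p = 0.0676 to 0.0702) and that of *Atg4c* without ctrl. replicate 1 or 2 or cal. res. replicate 2 (log2 0.26 to 0.27, adjusted p = 0.0511 to 0.0594). In the time series libraries *Atg7* (log2 -0.55) and *Atg3* (log2 0.23) were called and *Atg5* (log2 -0.052) and *Atg4c* (log2 0.12) were not. From ZT12 to ZT16 on cal. res. 3 of the 10 conjugation genes rose (21.0% of all genes), the proteases *Atg4d* (mean 2.52 to 4.40 CPM, log2 0.82, adjusted p = 0.0198) and *Atg4b* (log2 0.29, adjusted p = 0.0257) and *Atg5* (log2 0.43, adjusted p = 0.00437), each higher in 3 of 3 livers. The *Atg4d* call was lost without ZT12 replicate 3 or ZT16 replicate 1 or 2 (log2 0.67 to 0.84, adjusted p = 0.0528 to 0.0651) and the *Atg4b* call without ZT12 replicate 1 or 3 or ZT16 replicate 1 or 2 (log2 0.26 to 0.29, adjusted p = 0.0623 to 0.0839) or with DESeq2 (log2 0.28, adjusted p = 0.0805). *Atg4a* (5.47 to 14.4 CPM), *Atg10* and *Atg12* (23.1 to 35.8 CPM), the remaining protease, the E2-like enzyme of ATG12 and ATG12 itself, were not called in any comparison of groups.

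Among the LC3 and GABARAP genes, *Map1lc3b*, which encodes the LC3B protein of the autophagosome membrane, was called with diet, with CORT, with GR loss on cal. res. at ZT8 and ZT12, and from ZT12 to ZT16 on cal. res. It rose with diet from 127, 126 and 118 CPM to 169, 177 and 173 CPM (log2 fold change 0.49, SE 0.0653, adjusted p = 0.00132), and in the time series libraries as well (log2 0.61, adjusted p = 0.00141). With CORT it rose from 83.4, 74.0 and 79.8 CPM to 118, 130 and 118 CPM (log2 fold change 0.63, SE 0.0890, adjusted p = 0.0103). Neither pair of groups overlapped, and the CORT call was lost without ctrl. replicate 2 (log2 0.58, adjusted p = 0.0619). On cal. res. at ZT12 it stood at 209, 202 and 203 CPM in WT and 114, 131 and 122 CPM in GR LKO (log2 fold change -0.74, SE 0.0827, adjusted p = 0.00195). All 3 GR LKO livers were lower, and the call was kept without any 1 library.

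At ZT8 on cal. res. *Map1lc3b* was 141, 162 and 156 CPM in WT and 108, 111 and 114 CPM in GR LKO (log2 fold change -0.46, SE 0.0807, adjusted p = 0.0319). The genotypes were separate, and the call was lost without WT replicate 2 or 3 or GR LKO replicate 1, 2 or 3 (log2 -0.49 to -0.42, adjusted p = 0.0520 to 0.150). On ctrl. diet at ZT12 it was 138, 117, 130 and 147 CPM in WT and 109, 103, 107 and 108 CPM in GR LKO (log2 fold change -0.31, SE 0.0776, adjusted p = 0.0851). The GR LKO livers all lay lower there too without passing the threshold, and the difference between the diets did not pass it (interaction log2 -0.41, SE 0.1105, adjusted p = 0.101). By ZT16 WT livers held 106, 93.1 and 91.8 CPM on cal. res. (log2 fold change -1.07, SE 0.0828, adjusted p = 0.000222) and 121, 104, 102 and 103 CPM on ctrl. diet (log2 fold change -0.30, SE 0.0867, adjusted p = 0.0532). The ZT16 livers were separate from the ZT12 livers on cal. res. and overlapped them on ctrl. diet.

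*Gabarapl1*, a GABARAP family gene, fell from ZT12 to ZT16 on both diets. On cal. res. it went from 405, 341 and 377 CPM to 168, 129 and 131 CPM (log2 fold change -1.38, SE 0.127, adjusted p = 0.000360). On ctrl. diet it went from 301, 332, 314 and 331 CPM to 196, 192, 140 and 160 CPM (log2 fold change -0.89, SE 0.106, adjusted p = 0.00204). No libraries overlapped, and both calls were kept without any 1 library. With CORT it rose from 161, 133 and 163 CPM to 240, 315 and 214 CPM (log2 fold change 0.75, SE 0.162, adjusted p = 0.0354). The CORT livers were all higher, and the call was lost without ctrl. replicate 1, 2 or 3 or CORT replicate 1 (log2 0.66 to 0.80, adjusted p = 0.0780 to 0.135).

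With diet *Gabarapl1* was not called, at 275, 229 and 217 CPM on ctrl. and 259, 312 and 334 CPM on cal. res. (log2 fold change 0.33, SE 0.128, adjusted p = 0.0691). These groups overlapped. GR loss did not bring a call either, with 405, 341 and 377 CPM in WT and 435, 470 and 501 CPM in GR LKO on cal. res. at ZT12 (log2 fold change 0.33, SE 0.101, adjusted p = 0.0687) and 301, 332, 314 and 331 and 413, 375, 358 and 391 CPM on ctrl. diet (log2 fold change 0.27, SE 0.0697, adjusted p = 0.101). The GR LKO livers were nevertheless above the WT livers on both diets, and the interaction was log2 0.074 (SE 0.116, adjusted p = 0.840). *Gabarapl2*, another family member, fell with diet (log2 -0.30, adjusted p = 0.0129) and from ZT12 to ZT16 on cal. res. (log2 -0.34, adjusted p = 0.0177), in 3 of 3 livers each, calls lost without ctrl. replicate 1 (log2 -0.26, adjusted p = 0.0505) and without ZT12 replicate 2 or ZT16 replicate 1 or 2 (log2 -0.35 to -0.30, adjusted p = 0.0508 to 0.0566). In the time series libraries the diet call of *Gabarapl2* was lost as well (log2 -0.068, adjusted p = 0.530). *Gabarap* (141 to 197 CPM) and *Map1lc3a* (16.6 to 40.4 CPM) were not called in any comparison of groups. In all, 3 of the 5 genes of this role fell from ZT12 to ZT16 on cal. res. (19.0% of all genes) and 1 on ctrl. diet (6.60% of all), and 2 rose with CORT (4.47% of all).

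The cargo receptors bind LC3 proteins and what is to be degraded. *Bnip3*, a mitochondrial receptor of mitophagy, rose with diet from 312, 311 and 295 CPM to 426, 498 and 568 CPM (log2 fold change 0.70, SE 0.1105, adjusted p = 0.00238), and in the time series libraries too (log2 1.11, adjusted p = 0.000387). On cal. res. at ZT12 it was lower with GR loss, at 589, 505 and 581 CPM in WT and 374, 381 and 369 CPM in GR LKO (log2 fold change -0.57, SE 0.0899, adjusted p = 0.00775). Both pairs of groups were separate, and both calls were kept without any 1 library. At ZT16 on cal. res. the values were 314, 312 and 261 CPM in WT and 204, 203 and 211 CPM in GR LKO (log2 fold change -0.52, SE 0.0964, adjusted p = 0.0268). The genotypes were again separate, but this call was lost without WT replicate 1 or 2 or GR LKO replicate 1, 2 or 3 (log2 -0.54 to -0.47, adjusted p = 0.0743 to 0.105).

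On ctrl. diet at ZT12 *Bnip3* held 265, 249, 220 and 296 CPM in WT and 274, 218, 267 and 247 CPM in GR LKO (log2 fold change -0.030, SE 0.108, adjusted p = 0.959). Here the genotypes overlapped. The interaction was log2 -0.53 (SE 0.149, adjusted p = 0.118), so that a difference between the diets in the effect of GR loss was not shown. From ZT12 to ZT16 *Bnip3* fell on cal. res. to the ZT16 values above (log2 fold change -0.91, adjusted p = 0.000821) and was not called on ctrl. diet, with 271, 217, 219 and 208 CPM at ZT16 (log2 fold change -0.16, adjusted p = 0.355), where the times overlapped. In the corticosterone experiment it was 186, 174 and 117 CPM in ctrl. and 238, 269 and 246 CPM in CORT livers (log2 fold change 0.66, SE 0.173, adjusted p = 0.0615). The CORT livers were all higher without a call. *Bnip3l*, its relative, rose with diet (log2 0.36, adjusted p = 0.00367) and fell from ZT12 to ZT16 on cal. res. (mean 125 to 74.2 CPM, log2 -0.74, adjusted p = 0.000664), in 3 of 3 livers each.

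*Sqstm1*, which encodes p62, a receptor of ubiquitinated cargo, was called in no comparison of groups. It held 205, 194 and 199 CPM on ctrl. and 178, 218 and 242 CPM on cal. res. in the diet comparison (log2 fold change 0.095, SE 0.114, adjusted p = 0.525), and 279, 293 and 325 CPM and 281, 373 and 294 CPM without and with CORT (log2 fold change 0.079, SE 0.131, adjusted p = 0.755). Both pairs of groups overlapped. On cal. res. at ZT12 the values were 308, 249 and 258 CPM in WT and 255, 250 and 298 CPM in GR LKO (log2 fold change -0.018, SE 0.119, adjusted p = 0.932), and on ctrl. diet 287, 282, 276 and 261 and 285, 306, 343 and 304 CPM (log2 fold change 0.17, SE 0.0741, adjusted p = 0.400). These overlapped as well, and the interaction was log2 -0.17 (adjusted p = 0.627). At ZT16 WT livers held 343, 317 and 288 CPM on cal. res. (log2 fold change 0.23, adjusted p = 0.138) and 312, 293, 284 and 302 CPM on ctrl. diet (log2 fold change 0.11, adjusted p = 0.221), each overlapping ZT12. *Optn*, which encodes the receptor optineurin, fell with diet in 3 of 3 livers (mean 121 to 83.5 CPM, log2 -0.54, adjusted p = 0.00104) and from ZT12 to ZT16 on ctrl. diet (log2 fold change -0.27, adjusted p = 0.0173), the latter call lost without ZT16 replicate 3 (log2 -0.25, adjusted p = 0.0582). *Nbr1*, a receptor related to p62, was not called between groups and ran from 154 to 262 CPM.

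TFEB and TFE3 are transcription factors that switch on lysosomal and autophagy genes. *Tfeb* was called in no comparison of groups. It held 7.44, 7.02 and 8.83 CPM on ctrl. and 8.51, 10.8 and 9.34 CPM on cal. res. in the diet comparison (log2 fold change 0.30, SE 0.132, adjusted p = 0.101), which overlapped. In the time series libraries its diet difference had the other sign (log2 -0.61, adjusted p = 0.0165). In the corticosterone experiment it was 9.29, 8.36 and 9.37 CPM in ctrl. and 7.91, 5.90 and 7.20 CPM in CORT livers (log2 fold change -0.36, SE 0.157, adjusted p = 0.204). Those groups were separate, at low levels and without a call. With GR loss at ZT12 it was 8.55, 5.73 and 7.18 CPM in WT and 6.53, 5.88 and 6.80 CPM in GR LKO on cal. res. (log2 fold change -0.16, adjusted p = 0.608), and 10.2, 10.5, 12.0 and 10.5 and 12.2, 11.4, 10.1 and 9.32 CPM on ctrl. diet (log2 fold change -0.0077, adjusted p = 0.989). The genotypes overlapped on both diets (interaction log2 -0.14, adjusted p = 0.827). At ZT16 WT livers held 6.21, 5.02 and 4.08 CPM on cal. res. (log2 fold change -0.47, adjusted p = 0.126) and 10.7, 8.11, 11.3 and 9.10 CPM on ctrl. diet (log2 fold change -0.14, adjusted p = 0.516), again overlapping ZT12. *Tfe3* was called higher with diet in 3 of 3 livers (log2 0.36, adjusted p = 0.0335), a call lost without ctrl. replicate 1 or 2 or cal. res. replicate 2 or 3 (log2 0.26 to 0.40, adjusted p = 0.0565 to 0.0975) and of the other sign in the time series libraries (log2 -0.066).

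Of the lysosomal genes, *Ctsb*, *Ctsd* and *Ctsl* encode cathepsin proteases and *Lamp1* and *Lamp2* the main membrane proteins. *Ctsl* rose with diet in 3 of 3 livers (mean 407 to 571 CPM, log2 0.49, adjusted p = 0.00457) and in the time series libraries (log2 0.89). On cal. res. at ZT12 it was 923, 680 and 673 CPM in WT and 520, 564 and 506 CPM in GR LKO (log2 fold change -0.51, SE 0.140, adjusted p = 0.0483). *Ctsb* went the other way, at 448, 364 and 414 CPM in WT and 519, 529 and 574 CPM in GR LKO (log2 fold change 0.41, SE 0.103, adjusted p = 0.0385). The genotypes were separate for both cathepsins, and the call of *Ctsl* was lost without any 1 of the 6 libraries (log2 -0.60 to -0.34, adjusted p = 0.0611 to 0.134) or with no filter (log2 -0.51, adjusted p = 0.0624), and that of *Ctsb* without WT replicate 2 or 3 or GR LKO replicate 1, 2 or 3 (log2 0.33 to 0.44, adjusted p = 0.0734 to 0.118) or with no filter (log2 0.41, adjusted p = 0.0542). *Ctsd* rose with diet in 3 of 3 livers (log2 fold change 0.27, adjusted p = 0.0341), a call lost without ctrl. replicate 1, 2 or 3 or cal. res. replicate 2 or 3 (log2 0.21 to 0.30, adjusted p = 0.0585 to 0.116) and not made in the time series libraries (log2 0.25). From ZT12 to ZT16 on cal. res. *Ctsl* (log2 fold change -0.54, adjusted p = 0.0201) and *Lamp1* (log2 fold change -0.27, adjusted p = 0.0338) fell in 3 of 3 livers, the calls being lost for *Ctsl* without ZT16 replicate 2 or 3 (log2 -0.52 to -0.49, adjusted p = 0.0636 to 0.0645) and for *Lamp1* without ZT12 replicate 1 or 3 or ZT16 replicate 1 or 2 (log2 -0.28 to -0.23, adjusted p = 0.0800 to 0.0961). *Lamp2*, a membrane protein needed for fusion with autophagosomes, was 607, 648 and 637 CPM in WT and 491, 429 and 500 CPM in GR LKO on cal. res. at ZT16 (log2 fold change -0.41, SE 0.0893, adjusted p = 0.0458). The GR LKO livers were all lower, and the call was lost without any 1 of the 6 libraries (log2 -0.46 to -0.35, adjusted p = 0.0852 to 0.130).

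Rhythms were tested with JTK_CYCLE over the 6 times, which gives a peak time and an adjusted p, with the amplitude taken on VST values (a log2-like scale). In WT livers on ctrl. diet 24 of the 44 were called rhythmic (27.2% of all genes tested), and on cal. res. 18 (21.7% of all). In GR LKO livers the counts were 26 on ctrl. diet (22.8% of all) and 21 on cal. res. (19.9% of all). These shares are of every gene with at least 1 count in the series, 18651 to 18932 genes. They include genes under the filter on low counts, which all 44 passed, so members and background were not matched in level. Among genes past that filter edgeR's F test over the times called 64.3% in WT and 60.5% in GR LKO on cal. res., with counts of the 44 given below. The share of all rhythmic genes with each peak stands beside the counts. Peaks of the called genes in WT on ctrl. diet were at ZT4 for 4 (12.8%), ZT8 for 8 (14.5%), ZT12 for 11 (21.1%) and ZT16 for 1 (16.03%), where 23.9% of all rhythmic genes peaked at ZT0 and 11.7% at ZT20. On cal. res. in WT they were at ZT0 for 3 (13.1%), ZT4 for 3 (18.8%), ZT8 for 7 (15.9%), ZT12 for 3 (17.3%) and ZT20 for 2 (16.01%), with 18.9% of all at ZT16. In GR LKO on cal. res. they were at ZT0 for 3 (15.0%), ZT4 for 6 (13.5%), ZT8 for 5 (20.03%), ZT12 for 3 (17.3%), ZT16 for 3 (16.7%) and ZT20 for 1 (17.4%). In GR LKO on ctrl. diet 7 peaked at ZT4 (12.4%), 9 at ZT8 (18.2%), 8 at ZT12 (18.9%) and 2 at ZT16 (15.2%), with 22.3% of all at ZT0 and 12.98% at ZT20. The median amplitude of the called genes was 0.241 in WT on ctrl. diet (0.231 for all rhythmic genes), 0.462 in WT on cal. res. (0.314), 0.334 in GR LKO on cal. res. (0.318) and 0.241 in GR LKO on ctrl. diet (0.225). The called genes differ from series to series, so these medians are of different sets. Over all 44, called or not, the medians were 0.177 (0.134 for all genes tested), 0.213 (0.177), 0.226 (0.167) and 0.194 (0.118) in the same order.

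*Ulk1* peaked at ZT8 in all 4 series. Its mean was 47.0 ± 4.60, 87.7 ± 8.09, 126 ± 24.6, 117 ± 3.98, 55.0 ± 9.76 and 56.7 ± 8.33 CPM (SD, n = 3 or 4) at ZT0, ZT4, ZT8, ZT12, ZT16 and ZT20 in WT on ctrl. diet (VST amplitude 0.647, adjusted p = 0.00586), with single livers at 41.9 to 162 (median 73.8) CPM. In GR LKO on ctrl. diet it was 51.6 ± 6.13, 88.2 ± 11.6, 119 ± 17.1, 89.8 ± 2.30, 40.6 ± 7.57 and 63.1 ± 16.9 CPM (VST amplitude 0.677, adjusted p = 0.00252). The low means were at ZT0, ZT16 and ZT20 in both genotypes. On cal. res. the means were 74.4 ± 4.83, 77.6 ± 12.1, 100 ± 6.81, 100 ± 11.3, 28.8 ± 5.87 and 60.2 ± 9.83 CPM in WT (VST amplitude 0.8294, adjusted p = 0.0345) and 66.2 ± 7.26, 71.0 ± 7.03, 81.9 ± 16.5, 80.2 ± 7.04, 22.4 ± 3.74 and 49.4 ± 2.84 CPM in GR LKO (VST amplitude 0.819, adjusted p = 0.0474), with single livers at 22.6 to 112 (median 72.0) and 18.7 to 98.2 (median 67.5) CPM. There the lowest mean was at ZT16 and the highest ones were at ZT8 and ZT12. The call was kept in 11 of 18 fits without 1 library in cal. res. WT and in 1 of 18 in cal. res. GR LKO.

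*Gabarapl1* had the largest amplitude of the called genes in both genotypes on ctrl. diet. Its mean was 226 ± 26.0, 381 ± 29.5, 520 ± 39.8, 319 ± 15.1, 172 ± 26.7 and 194 ± 37.2 CPM at the 6 times in WT (VST amplitude 0.781, adjusted p = 0.000305, peak ZT8) and 244 ± 41.8, 381 ± 38.3, 517 ± 47.5, 384 ± 23.5, 182 ± 15.2 and 182 ± 31.7 CPM in GR LKO (VST amplitude 0.730, adjusted p = 8.04e-05, peak ZT8), with single livers at 140 to 551 (median 274) and 161 to 564 (median 354) CPM. On ctrl. diet the level rose to a single high at ZT8. On cal. res. WT livers averaged 434 ± 54.3, 411 ± 122, 398 ± 75.0, 374 ± 32.2, 143 ± 22.2 and 203 ± 15.0 CPM (VST amplitude 0.781, adjusted p = 0.0435, peak ZT4) and GR LKO livers 400 ± 27.3, 476 ± 27.1, 493 ± 13.1, 469 ± 33.0, 174 ± 16.5 and 232 ± 17.5 CPM (VST amplitude 0.738, adjusted p = 0.0107, peak ZT8), with single livers at 129 to 548 (median 356) and 161 to 505 (median 428) CPM. These means were high and near one another from ZT0 to ZT12 and low at ZT16 and ZT20. The WT cal. res. call was kept in 6 of 18 fits without 1 library.

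*Bnip3* was highest at ZT12 in every series by its means. They were 109 ± 21.8, 119 ± 8.38, 190 ± 8.40, 257 ± 31.7, 229 ± 28.5 and 134 ± 12.2 CPM in WT on ctrl. diet (VST amplitude 0.596, adjusted p = 3.95e-05, peak ZT12) and 113 ± 2.31, 131 ± 15.9, 198 ± 10.4, 252 ± 24.9, 197 ± 6.44 and 108 ± 9.39 CPM in GR LKO on ctrl. diet (VST amplitude 0.571, adjusted p = 0.000109, peak ZT12). On cal. res. they were 156 ± 2.44, 220 ± 23.5, 357 ± 36.4, 558 ± 46.6, 295 ± 29.8 and 142 ± 16.2 CPM in WT (VST amplitude 0.978, adjusted p = 0.00217, peak ZT12) and 162 ± 13.6, 221 ± 20.8, 310 ± 36.6, 375 ± 5.66, 206 ± 4.57 and 127 ± 22.9 CPM in GR LKO (VST amplitude 0.777, adjusted p = 0.00810, peak ZT8). Single livers ran from 87.5 to 296 (median 185) CPM in WT on ctrl. diet, 123 to 589 (median 253) CPM in WT on cal. res. and 111 to 381 (median 208) CPM in GR LKO on cal. res. All 4 calls were kept without any 1 library.

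*Map1lc3b* averaged 88.3 ± 11.5, 101 ± 8.56, 119 ± 3.78, 133 ± 12.7, 108 ± 9.30 and 93.9 ± 5.71 CPM in WT on ctrl. diet (VST amplitude 0.276, adjusted p = 0.000305, peak ZT12) and 88.7 ± 7.38, 97.02 ± 1.92, 112 ± 6.05, 107 ± 2.46, 84.8 ± 5.08 and 79.5 ± 6.03 CPM in GR LKO on ctrl. diet (VST amplitude 0.223, adjusted p = 0.000424, peak ZT8). On cal. res. it averaged 125 ± 3.90, 120 ± 8.56, 153 ± 11.02, 205 ± 3.34, 96.9 ± 7.76 and 99.6 ± 2.48 CPM in WT (VST amplitude 0.525, adjusted p = 0.0435, peak ZT8) and 110 ± 3.87, 105 ± 3.83, 111 ± 2.94, 122 ± 8.15, 73.8 ± 6.43 and 83.8 ± 1.39 CPM in GR LKO, where it was not called rhythmic (VST amplitude 0.349, adjusted p = 0.297). WT livers on cal. res. had a high mean at ZT12 that the GR LKO livers did not reach. The WT cal. res. call was kept in 7 of 18 fits without 1 library, and the change of rhythm with GR loss was not called.

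*Sqstm1* peaked in the light phase or at lights on, at means of 353 ± 26.3, 437 ± 23.8, 385 ± 26.4, 276 ± 11.4, 298 ± 12.3 and 322 ± 18.2 CPM in WT on ctrl. diet (VST amplitude 0.323, adjusted p = 0.00154, peak ZT4) and 392 ± 35.6, 356 ± 3.55, 257 ± 20.5, 272 ± 31.6, 316 ± 27.6 and 351 ± 16.2 CPM in WT on cal. res. (VST amplitude 0.290, adjusted p = 0.00545, peak ZT0). GR LKO livers averaged 359 ± 46.1, 430 ± 36.5, 391 ± 25.4, 310 ± 24.3, 304 ± 25.1 and 320 ± 27.3 CPM on ctrl. diet (VST amplitude 0.240, adjusted p = 0.00252, peak ZT4) and 381 ± 2.92, 340 ± 27.5, 236 ± 4.48, 267 ± 26.2, 264 ± 20.8 and 324 ± 15.8 CPM on cal. res. (VST amplitude 0.334, adjusted p = 0.0107, peak ZT0). Its lowest means were at ZT12 in WT on ctrl. diet and at ZT8 on cal. res. *Tfeb* averaged 7.14 ± 0.620, 6.68 ± 1.35, 8.16 ± 0.678, 10.8 ± 0.817, 9.80 ± 1.47 and 8.42 ± 0.954 CPM in WT (VST amplitude 0.221, adjusted p = 0.00988, peak ZT12) and 7.18 ± 1.05, 5.64 ± 0.750, 8.94 ± 0.935, 10.7 ± 1.27, 8.98 ± 0.443 and 6.56 ± 0.627 CPM in GR LKO (VST amplitude 0.244, adjusted p = 0.00324, peak ZT12) on ctrl. diet. On cal. res. it averaged 5.10 ± 0.414, 5.88 ± 0.958, 8.17 ± 0.640, 7.15 ± 1.41, 5.11 ± 1.07 and 5.09 ± 0.365 CPM in WT (VST amplitude 0.214, adjusted p = 0.0435, peak ZT8, kept in 8 of 18 fits without 1 library) and 4.34 ± 0.193, 4.15 ± 1.08, 6.09 ± 0.834, 6.402 ± 0.475, 3.89 ± 0.794 and 3.58 ± 0.764 CPM in GR LKO, where it was not called (VST amplitude 0.234, adjusted p = 0.115).

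**Figure D3:**
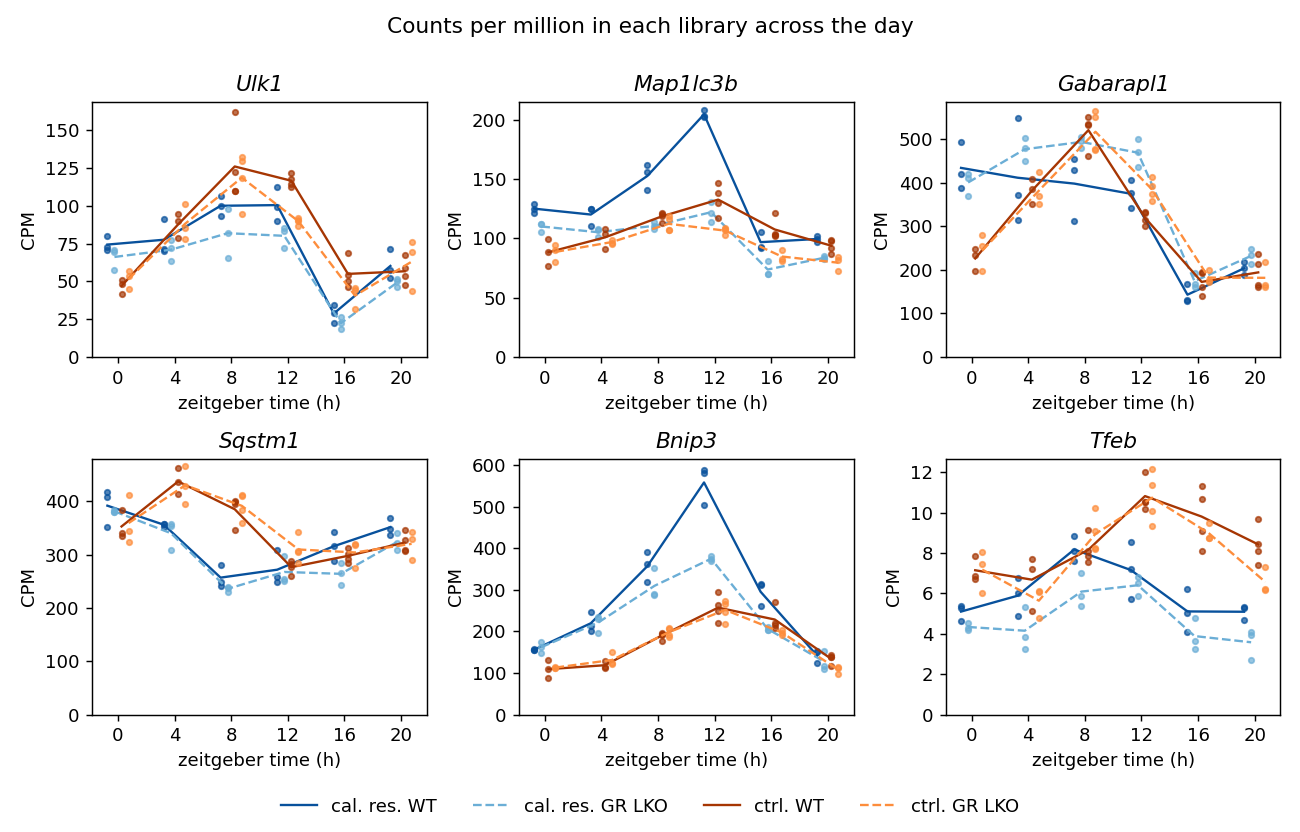
CPM (vertical axes) of *Ulk1*, *Map1lc3b*, *Gabarapl1*, *Sqstm1*, *Bnip3* and *Tfeb* against zeitgeber time in hours (horizontal axes), for WT (solid lines) and GR LKO (dashed lines) on cal. res. (blue) and ctrl. diet (orange). Points are single livers, offset sideways by series, and lines join the means of 3 or 4 livers. CPM were scaled within each diet, so heights are comparable between genotypes and times of a diet, not between diets. *Bnip3* in cal. res. WT reaches a mean of 558 CPM at ZT12 and falls to 295 CPM at ZT16.

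*Uvrag*, *Wdr45* and *Wipi1* were also among the 5 called genes of largest amplitude in some series. *Uvrag* averaged 21.8, 15.7, 24.7, 37.6, 29.0 and 15.7 CPM at the 6 times in WT on ctrl. diet (VST amplitude 0.489, adjusted p = 0.0472, peak ZT12, kept in 6 of 22 fits without 1 library), 22.1, 18.1, 25.4, 37.9, 31.9 and 21.4 CPM in GR LKO on ctrl. diet (VST amplitude 0.395, adjusted p = 0.0269, peak ZT12, kept in 16 of 20) and 18.1, 23.6, 29.7, 47.8, 23.4 and 22.7 CPM in GR LKO on cal. res. (VST amplitude 0.614, adjusted p = 0.0179, peak ZT12, kept in 13 of 18). Its single livers ran from 12.95 to 48.3 (median 23.3), 15.5 to 44.9 (median 26.0) and 14.6 to 53.2 (median 25.3) CPM in these series, highest at ZT12 by the mean in each. *Wdr45* averaged 24.7, 31.0, 38.4, 44.8, 31.2 and 22.8 CPM in WT on ctrl. diet (VST amplitude 0.408, adjusted p = 0.000305, peak ZT12), 26.8, 32.6, 39.3, 44.5, 33.6 and 24.0 CPM in GR LKO on ctrl. diet (VST amplitude 0.344, adjusted p = 0.00145, peak ZT12) and 35.2, 40.7, 43.2, 39.1, 16.5 and 23.9 CPM in WT on cal. res. (VST amplitude 0.587, adjusted p = 0.00728, peak ZT8), with single livers at 19.9 to 47.5 (median 31.1), 22.9 to 49.4 (median 34.0) and 15.6 to 45.8 (median 36.4) CPM. Its lowest mean was at ZT20 on ctrl. diet and at ZT16 on cal. res. *Wipi1* averaged 18.1, 16.3, 18.0, 12.2, 5.38 and 11.1 CPM in WT on cal. res. (VST amplitude 0.611, adjusted p = 0.0126, peak ZT4) and 13.4, 15.8, 13.5, 10.1, 4.38 and 9.95 CPM in GR LKO on cal. res. (VST amplitude 0.593, adjusted p = 0.000137, peak ZT4), with single livers at 3.68 to 20.5 (median 14.2) and 3.62 to 16.7 (median 12.1) CPM and the low mean at ZT16 in both.

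The other genes called rhythmic in WT on ctrl. diet were *Atg13*, *Rb1cc1*, *Becn1*, *Pik3c3*, *Atg14*, *Atg2a*, *Atg2b*, *Wipi2*, *Gabarap*, *Gabarapl2*, *Nbr1*, *Optn*, *Bnip3l*, *Tfe3*, *Lamp2* and *Ctsl*. In WT on cal. res. they were *Atg101*, *Atg14*, *Uvrag*, *Atg2a*, *Atg5*, *Atg7*, *Gabarap*, *Lamp1*, *Lamp2* and *Ctsd*. In GR LKO on ctrl. diet the others were *Atg13*, *Atg101*, *Rb1cc1*, *Becn1*, *Pik3c3*, *Atg14*, *Atg2a*, *Atg2b*, *Wipi1*, *Wipi2*, *Atg3*, *Gabarap*, *Gabarapl2*, *Nbr1*, *Optn*, *Bnip3l*, *Lamp2* and *Ctsl*. In GR LKO on cal. res. they were *Atg13*, *Atg101*, *Becn1*, *Pik3c3*, *Pik3r4*, *Ambra1*, *Atg2a*, *Wdr45*, *Atg3*, *Atg7*, *Atg12*, *Gabarap*, *Gabarapl2*, *Optn* and *Ctsl*. Not every call was kept when single libraries were left out. In WT this held for *Atg2b* (17 of 22) on ctrl. diet and for *Atg101* (9 of 18), *Atg5* (15 of 18), *Atg7* (9 of 18), *Lamp1* (4 of 18) and *Lamp2* (12 of 18) on cal. res. (fits that kept the call). In GR LKO it held for *Rb1cc1* (15 of 20) and *Gabarapl2* (11 of 20) on ctrl. diet and for *Becn1* (14 of 18), *Wdr45* (17 of 18), *Atg3* (6 of 18), *Atg7* (17 of 18), *Atg12* (8 of 18), *Gabarap* (2 of 18) and *Gabarapl2* (5 of 18) on cal. res. Of these, *Lamp1* in WT on cal. res. was also not called with log2 CPM in place of variance-stabilized values (adjusted p = 0.0554), nor *Gabarap* in GR LKO on cal. res. by edgeR's F test (adjusted p = 0.1002). A gene called in one series and not in another is not thereby shown to differ between them.

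That difference was tested with limma as an interaction of group with a 24 h sine and cosine. With GR loss it called 0 of the 44 on cal. res. (0.659% of all) and 0 on ctrl. diet (0.366% of all). At limma's unadjusted p under 0.05 there were 8 (12.1% of all) and 9 (9.83%), and edgeR's F test of group by time called 3 (5.34%) and 0 (0.600%). Between the diets in WT it called 16 of the 44 (26.6% of all). In that contrast diet and library series cannot be told apart. Values are given for *Wdr45* and *Atg2a*, chosen after their values were seen for the smallest p, and for *Bnip3*, *Sqstm1* and *Tfeb*. *Wdr45* went from a fitted amplitude of 0.426 to 0.561, with the fitted peak at 10.2 h and 5.95 h (adjusted p = 5.42e-05), and *Atg2a* from 0.370 to 0.431, with the fitted peak at 9.97 h and 4.43 h (adjusted p = 6.34e-05). *Bnip3* went from 0.661 to 0.941, with the fitted peak at 12.7 h and 10.9 h (adjusted p = 0.000275), *Sqstm1* from 0.278 to 0.278, with the fitted peak at 3.50 h and 23.0 h (adjusted p = 0.000561) and *Tfeb* from 0.249 to 0.247, with the fitted peak at 14.05 h and 8.85 h (adjusted p = 0.00126), each on ctrl. diet and cal. res. in turn. The others called were *Atg13*, *Atg101*, *Wipi1*, *Wipi2*, *Atg5*, *Atg7*, *Map1lc3a*, *Gabarap*, *Tfe3*, *Lamp2* and *Ctsd*. By the shorter way round the day the fitted peak lay earlier on cal. res. for 14 of the 16 called genes, against 84.1% of all genes called, and later for *Tfe3* and *Ctsd*. These 2 calls were also the ones lost without single libraries, that of *Tfe3* in 8 of 40 fits (adjusted p = 0.0502 to 0.0662) and that of *Ctsd* in 3 of 40 (adjusted p = 0.0524 to 0.0660), and *Ctsd* was not called by edgeR's F test (adjusted p = 0.0679). Amplitude was larger on cal. res. for 29 of the 44 and for 61.8% of all genes tested.

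A further 91 genes of the lysosome, of membrane fusion and of selective autophagy were listed, also with earlier results of these data known. Of them 90 were in the tables (Fam134a was not matched). These were not tested again without single libraries. With diet 22 rose (23.5% of all genes) and 20 fell (23.6%) of 89 tested, which is near the shares of all genes, so that count is not a result about the listed genes. Among them were 4 and 2 of 15 v-ATPase subunits, which acidify the lysosome, 7 and 6 of 29 other lysosomal hydrolases and activators, 2 and 3 of 12 genes of lysosomal membrane and transport, 1 and 6 of 15 fusion genes, 8 and 3 of 15 other phagophore factors and receptors and, by edgeR, 0 of 3 transcription factors (0 at unadjusted p under 0.05). Whether any of these lists differed from all genes was not tested. *Trp53inp1* (mean 42.1 to 218 CPM, log2 2.37, adjusted p = 9.40e-05), *Retreg1* (mean 1.70 to 7.40 CPM, log2 2.12, adjusted p = 0.000826) and *Depp1* (mean 20.8 to 56.3 CPM, log2 1.43, adjusted p = 0.000350) rose most. *Arsa* (mean 70.3 to 16.7 CPM, log2 -2.07, adjusted p = 7.01e-05), *Vps41* (mean 56.3 to 30.3 CPM, log2 -0.89, adjusted p = 0.000300) and *Stbd1* (mean 92.4 to 70.01 CPM, log2 -0.40, adjusted p = 0.0299) fell most.

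From ZT12 to ZT16 on cal. res. 4 of 89 rose (21.0% of all genes) and 33 fell (19.0% of all). Of the 15 v-ATPase subunits 6 fell, as did 4 of 12 genes of membrane and transport, 10 of 29 hydrolases, 10 of 15 phagophore factors and receptors and 3 of 15 fusion genes, the last near the share of all genes. *Depp1* (mean 50.2 to 3.19 CPM, log2 -3.95, adjusted p = 0.00176), *Calcoco1* (mean 35.2 to 6.55 CPM, log2 -2.41, adjusted p = 0.000172), and *Trp53inp1* (mean 175 to 33.0 CPM, log2 -2.40, adjusted p = 0.000164) fell most, and *Ctss*, a cathepsin of myeloid cells (mean 6.71 to 13.7 CPM, log2 1.04, adjusted p = 0.00677), *Tmem41b* (mean 24.4 to 35.2 CPM, log2 0.54, adjusted p = 0.00500), and *Rubcn* (mean 17.8 to 23.9 CPM, log2 0.43, adjusted p = 0.0108), rose. Over that step on ctrl. diet 1 of 88 rose (6.85% of all genes), *Tmem41b* (mean 24.1 to 31.5 CPM, log2 0.39, adjusted p = 0.0135), and 15 fell (6.60% of all), led by *Calcoco1* (mean 42.7 to 19.99 CPM, log2 -1.09, adjusted p = 0.00141), *Arsa* (mean 59.6 to 38.6 CPM, log2 -0.62, adjusted p = 0.00236) and *Slc38a9* (mean 13.8 to 9.12 CPM, log2 -0.59, adjusted p = 0.0149). There 5 of 15 fusion genes and 4 of 12 genes of membrane and transport fell. So did 2 of 15 v-ATPase subunits, 2 of 29 hydrolases and 2 of 15 phagophore factors and receptors. With CORT 4 of 88 rose (4.47% of all genes, a share near theirs), with *Trp53inp1* (mean 38.2 to 226 CPM, log2 2.56, adjusted p = 0.00711), *Scarb2* (mean 164 to 234 CPM, log2 0.51, adjusted p = 0.0230) and *Asah1* (mean 20.6 to 29.4 CPM, log2 0.51, adjusted p = 0.0485) first, and 1 fell (3.64% of all), *Zfyve1* (mean 79.3 to 47.7 CPM, log2 -0.73, adjusted p = 0.0249).

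With GR loss on cal. res. at ZT12, 9 of 89 rose (7.42% of all genes) and 5 fell (7.84%), together a share near that of all genes (15.3%), so that count is not a result about the listed genes. *Lipa* (mean 238 to 427 CPM, log2 0.85, adjusted p = 0.00949) and *Plekhm1* (mean 21.1 to 29.1 CPM, log2 0.46, adjusted p = 0.0458) rose most, and *Trp53inp1* (mean 175 to 71.4 CPM, log2 -1.29, adjusted p = 0.00248), *Trp53inp2*, its relative (mean 250 to 137 CPM, log2 -0.86, adjusted p = 0.00149), and *Ncoa4* (mean 303 to 169 CPM, log2 -0.84, adjusted p = 0.0195), fell most. At other cal. res. times *Grn*, progranulin (mean 187 to 112 CPM, log2 -0.74, adjusted p = 0.0243), *Trp53inp2* (mean 117 to 79.0 CPM, log2 -0.57, adjusted p = 0.0252) and the v-ATPase subunit *Atp6v0a1* (mean 43.8 to 33.4 CPM, log2 -0.39, adjusted p = 0.0319) fell at ZT8. At ZT16 *Lipa* rose (mean 298 to 424 CPM, log2 0.51, adjusted p = 0.0271) and *Tmem41b* fell (mean 35.2 to 24.1 CPM, log2 -0.54, adjusted p = 0.0214), and at ZT20 the hydrolases *Hexa* (mean 30.3 to 46.6 CPM, log2 0.64, adjusted p = 0.0373) and *Ppt1* (mean 20.3 to 29.7 CPM, log2 0.56, adjusted p = 0.0364) rose. On ctrl. diet *Trp53inp2* fell at ZT12 (mean 278 to 148 CPM, log2 -0.91, adjusted p = 0.00294), ZT16 (mean 277 to 194 CPM, log2 -0.51, adjusted p = 0.00940) and ZT20 (mean 279 to 153 CPM, log2 -0.85, adjusted p = 0.0380), *Atp6v0a1* fell at ZT8 (mean 48.0 to 38.5 CPM, log2 -0.32, adjusted p = 0.0290), and the cathepsin *Ctsc* rose at ZT16 (mean 37.0 to 56.4 CPM, log2 0.60, adjusted p = 0.0496). *Tfec*, 1 of the 3 transcription factors, was also called lower at ZT16 on ctrl. diet (adjusted p = 0.0242), with a mean of 0.971 CPM in 4 WT livers and 0 CPM in 3 GR LKO livers. It lay under the 5 CPM set for naming pathway genes and was chosen after its values were seen.

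Promoter sequences, 250 bases before to 50 after the start, were found for 36 of the 44 genes (42 promoters of 32851 in RefSeq GRCm38.p6) and searched on both strands. TFEB and TFE3 are known to bind the CLEAR element, whose core TCACGTGA holds the E-box CACGTG. The core was in 2 of the 42 promoters (4.76%) against 0.974% of all promoters, and the E-box, which the core contains, in 8 (19.0%) against 7.15%, namely those of *Atg14*, *Atg3*, *Atg5*, *Atg7*, *Bnip3*, *Ctsd*, *Ctsl* and *Lamp1*. The forkhead motif GTAAACA was in 0 of the 42 (3.65% of all) and the palindromic GRE in 0 (3 promoters of all). Shown here are both promoters with the core, *Ctsd* (chr7:142387778-142388077, minus strand) and *Atg3* (chr16:45158579-45158878, plus strand), and, with the E-box, *Bnip3* (chr7:138909457-138909756, minus strand) and *Ctsl* (chr13:64370471-64370770, minus strand), which were both called with diet and with GR loss on cal. res. at ZT12. Each runs 5′ to 3′ with the motif in capitals, and a match describes letters in this window only.
Ctsd: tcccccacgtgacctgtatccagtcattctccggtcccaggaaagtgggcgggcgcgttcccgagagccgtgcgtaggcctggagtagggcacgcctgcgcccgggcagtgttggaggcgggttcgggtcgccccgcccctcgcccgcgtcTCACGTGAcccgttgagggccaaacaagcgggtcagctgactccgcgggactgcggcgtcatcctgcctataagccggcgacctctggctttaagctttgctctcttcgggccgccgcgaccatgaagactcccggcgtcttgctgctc
Atg3: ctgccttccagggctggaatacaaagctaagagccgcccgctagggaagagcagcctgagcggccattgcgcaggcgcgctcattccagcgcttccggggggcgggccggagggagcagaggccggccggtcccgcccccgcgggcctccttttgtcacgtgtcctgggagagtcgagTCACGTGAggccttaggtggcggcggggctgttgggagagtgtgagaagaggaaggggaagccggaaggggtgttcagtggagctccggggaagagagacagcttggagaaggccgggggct
Bnip3: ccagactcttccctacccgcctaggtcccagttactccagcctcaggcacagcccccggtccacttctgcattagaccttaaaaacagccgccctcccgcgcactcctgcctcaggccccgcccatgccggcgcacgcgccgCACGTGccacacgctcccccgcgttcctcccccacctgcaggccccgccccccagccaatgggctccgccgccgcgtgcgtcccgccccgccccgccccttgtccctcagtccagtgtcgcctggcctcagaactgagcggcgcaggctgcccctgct
Ctsl: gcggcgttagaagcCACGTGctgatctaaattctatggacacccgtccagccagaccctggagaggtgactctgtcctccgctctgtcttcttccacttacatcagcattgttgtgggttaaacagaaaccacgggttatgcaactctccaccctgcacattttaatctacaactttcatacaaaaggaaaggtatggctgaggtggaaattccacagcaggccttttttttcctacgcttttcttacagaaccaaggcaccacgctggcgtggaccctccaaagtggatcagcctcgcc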

How the data were processed

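Bulk RNA-seq of mouse liver was analysed from 4 tables of estimated counts per gene that the authors made with Salmon and deposited, holding 90 libraries and 27654 Ensembl gene IDs, of which 27244 were matched to a symbol. Their processing notes also name FastQC, MultiQC, DESeq2 and mm10, without versions. The library kit in the labels (TruSeq RNA v2) does not mark strand, while the study's methods also name a stranded preparation without saying for which libraries, so reads of antisense partners may not be told apart. *Hba-a1* and *Hba-a2*, and *Hbb-bs* and *Hbb-bt*, are near-identical copies and enter only summed. A deposited table of variance-stabilized values for 6 libraries of the corticosterone experiment was not used.

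Estimated counts were rounded. Groups were compared with edgeR's quasi-likelihood test (edgeR 4.0.16, R 4.3.3; TMM, filterByExpr with a minimum count of 10), each fit holding the groups compared, with Benjamini-Hochberg adjustment over all genes tested and a threshold of 0.05. Rhythms were tested with JTK_CYCLE and its exact null over 6 phases of a 24 h period on variance-stabilized values (DESeq2 1.42.0), and rhythm change with limma 3.58.1 on values of that kind for genes past the filter. Scripts were tested on simulated data. DESeq2, no filter, a joint fit, a replicate block, the time series libraries for diet, leaving out each library and, for rhythms, log2 CPM (prior count 2), only genes past the filter, an amplitude minimum and edgeR's F test over times were the alternatives.

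Called genes are all named. Values in every library are given for the 5 called of the largest log2 fold change (rhythms: amplitude) with at least 5 CPM in 1 group, and for *Ulk1*, *Map1lc3b*, *Gabarapl1*, *Sqstm1*, *Bnip3* and *Tfeb* at ZT12. Of other pathway genes the 3 called of largest change in each direction with at least 5 CPM are named, except 1 that is not reported here. Members and lists were chosen with earlier results of these data known.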

Additional observations from a re-analysis of the deposited data

Results flagged for a closer look

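In a group of 4 livers, 1 stood apart from the rest for 2 genes, by its gap to the nearest other liver as a share of the group's range. *Map1lc3b* in WT replicate 1 on ctrl. diet at ZT16 was the highest, with a gap of 0.912 of the range. *Sqstm1* in WT replicate 2 on ctrl. diet at ZT8 was the lowest, with a gap of 0.884. These were 2 of 78 checks, and chance gives about 1 in 20 groups.

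The rhythms of 16 of the 44 genes (26.6% of all) differed between the diets in WT by limma's test of the difference, where diet and library series cannot be told apart. The adjusted p was 0.00370 for *Atg13*, 0.000634 for *Atg101*, 6.34e-05 for *Atg2a*, 0.000248 for *Wipi1*, 0.00532 for *Wipi2*, 5.42e-05 for *Wdr45*, 0.00571 for *Atg5*, 0.00720 for *Atg7*, 0.00487 for *Map1lc3a*, 0.0149 for *Gabarap*, 0.000561 for *Sqstm1*, 0.000275 for *Bnip3*, 0.00126 for *Tfeb*, 0.0356 for *Tfe3*, 0.00112 for *Lamp2* and 0.0323 for *Ctsd*. The calls of *Tfe3* and *Ctsd* were lost in 8 and 3 of 40 fits without 1 library.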

How the results depend on the processing

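Counts are of the 44 genes called, with the share of all genes tested in the same fits, and the cause of a move was not tested. DESeq2 moved the count by more than 1.5 times for GR loss on cal. res. at ZT0, ZT16 (3 to 6, 7.16%) and ZT20, on ctrl. diet at all 6 times (ZT12 1 to 5, 4.25%) and for the interaction, with the counts not given here standing beside the 0 of edgeR above. With no filter GR loss on cal. res. at ZT12 fell to 4 (8.70%). Fitting all libraries of a diet together gave 12 at ZT12 (21.5%), 8 at ZT16 (7.86%) and 4 at ZT20 (8.64%) for GR loss on cal. res., and 5 at ZT0 (4.91%), 3 at ZT12 (4.18%), 1 at ZT16 (3.65%) and 1 at ZT20 (3.02%) on ctrl. diet. EdgeR's F test over the times called 34 as varying in WT (64.3%) and 33 in GR LKO (60.5%) on cal. res., 3 for rhythm change with GR loss on cal. res. (5.34%) and 29 by diet (40.1%).

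Same-numbered libraries did not deviate together (correlations -0.123 to 0.115). With the replicate number as a block, GR loss on cal. res. gave 0 at ZT8 (1.25%), 2 at ZT12 (7.56%, *Map1lc3b* and *Bnip3*) and 0 at ZT16 (2.41%), GR loss on ctrl. diet 0 at ZT12 (0.884%), and CORT 3 (4.63%).

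In WT at ZT12 of the time series the diet difference had the other sign for *Ulk1* (-0.23), *Atg101* (-0.37), *Pik3r4* (0.041), *Sqstm1* (-0.037), *Tfeb* (-0.61) and *Tfe3* (-0.066, all log2), and diet and library series cannot be told apart there.

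Leaving out 1 library at a time gave 15 to 24 calls with diet (34.0% to 48.5%), 16 to 21 from ZT12 to ZT16 on cal. res. (29.6% to 33.1%), 1 to 2 for GR loss on ctrl. diet at ZT12 (1.185% to 1.71%), 2 to 7 with CORT and 0 to 1 for the interaction (0.394% to 1.21%). Rhythm calls were 22 to 26 in WT on ctrl. diet (24.7% to 27.2%), 10 to 20 in WT (18.3% to 20.3%) and 14 to 21 in GR LKO (15.5% to 19.8%) on cal. res., and 23 to 27 in GR LKO on ctrl. diet (19.02% to 23.3%), and rhythm change gave 0 to 1 with GR loss on ctrl. diet (0.222% to 0.485%) and 15 to 18 by diet (23.2% to 26.7%).

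The libraries whose omission moved a count by more than 1.5 times were each of the 6 for GR loss on cal. res. at ZT8 and at ZT16. At ZT12 they were WT replicates 1 (4 calls), 2 and 3 and GR LKO replicates 2 and 3 (3 calls each). For GR loss on ctrl. diet at ZT12 it was WT replicate 4 (2 calls), which also moved the interaction to 1. With CORT they were ctrl. replicates 1 (4), 2 (2) and 3 (3) and CORT replicates 1 (3) and 3 (4). From ZT12 to ZT16 on ctrl. diet they were ZT16 replicates 3 (4) and 4 (5). For the rhythm of WT on cal. res. they were ZT4 replicate 3 (11) and ZT8 replicate 3 (10), and for rhythm change with GR loss on ctrl. diet ZT0 GR LKO replicate 2 (1).

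Among genes not called, the sign also turned without single libraries for *Sqstm1* with GR loss on cal. res. at ZT12 (-0.11 to 0.083, turned at 0.016, 0.034 and 0.083) and with CORT (-0.059 to 0.16), for *Tfeb* (-0.073 to 0.052) and *Bnip3* (-0.10 to 0.044) with GR loss on ctrl. diet at ZT12, and in the interaction for *Ulk1* (-0.0073 to 0.15) and *Tfeb* (-0.28 to 0.010, all log2). With 3 or 4 livers a group and some genes at a few CPM, a gene that was not called is not shown to be unchanged.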
